A study of Mus musculus with 4 samples.

Results

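Constitutive heterochromatin of mouse cells is marked by trimethylation of histone H3 at lysine 9 (H3K9me3) and of histone H4 at lysine 20 (H4K20me3). Writers of the H3K9 marks, the Suv39h, Setdb1 and Ehmt enzymes, create docking sites for heterochromatin protein 1 (HP1), whose chromodomain reads methylated H3K9. HP1 in turn brings in the Kmt5b and Kmt5c enzymes, which write H4K20 methylation. At the pericentric major satellite repeats this order of events is the textbook case of a self-reinforcing silent domain, and the Suv39h enzymes are its best known writers in fibroblasts. The genes described here are 10 genes of this axis, chosen by name, though with earlier results of these data known. They are Suv39h1, Suv39h2, Setdb1, Ehmt1, Ehmt2, Kmt5b and Kmt5c as writers, and Cbx1 (HP1β), Cbx3 (HP1γ) and Cbx5 (HP1α) as readers. All 10 had their own row among the 47937 gene rows of the count table, and all 10 were among the 16240 genes that passed the filter on low counts.

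The study sequenced ribosome-depleted total RNA of mouse embryonic fibroblasts (MEF cells), connective tissue cells kept in culture. Wild-type, untreated MEF cells (2 libraries) were compared with MEF cells of the same kind kept in 50 µM genistein, a plant isoflavone, for 24 h (2 libraries). The labels call the control untreated and name no vehicle (the methods of the study describe DMSO alone for untreated cells of other assays), and they do not say whether the 2 libraries of a group came from separate cultures, so the p-values measure the spread between these libraries only. Each library held between 28591958 and 31464284 counts over genes and repeats, without molecular identifiers, so that precision here covers counting and library spread only. The question put to the heterochromatin genes was whether their transcripts differed between exposed and untreated cells.

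The labelled cell type was checked against marker genes. Of 10 fibroblast markers, 8 were tested, with Col1a1, Fn1 and Vim each at 53535 raw counts or more in every library, while Thy1 had 0 counts in all 4 libraries and Lum had at most 10. Of these 8, 7 fell and 1 (Fn1) rose with genistein, with a median log2 fold change of -0.22 (edgeR). Pdgfrb fell most, with -0.73, followed by Col1a2 with -0.50 and Col3a1 with -0.31. The raw counts of the list summed to between 404459 and 447435 in each library, of which Fn1 gave the largest part. Of the other cell types, 5 epithelial markers summed to 719 and 635 counts untreated and 126 and 108 with genistein, nearly all from Krt14, with Epcam and Krt5 at 0. The 5 immune markers summed to 87 and 63 counts untreated and 230 and 215 with genistein, most of them Cd68, with Ptprc at most at 1 count. The 4 endothelial markers summed to 25 and 29 counts untreated and 91 and 96 with genistein, mostly from Kdr, which rose (log2 fold change 1.98, adjusted p = 9.6e-07, edgeR), with Cdh5 at most at 1 count. The 4 pluripotent cell markers summed to 36 and 35 counts untreated and 54 and 62 with genistein, with Zfp42 at 0. In the G1/S list of 18 genes, 17 fell and 1 rose with genistein, with a median log2 fold change of -0.56 (edgeR). In the G2/M list of 18 genes, 10 fell, 4 rose and 4 did not pass, with a median of -0.18. Among all genes tested, 38.2% were lower and 33.5% were higher by the same rule, an adjusted p under 0.05 in edgeR. These marker and cell cycle lists moved in the same libraries as the genes below, and their part in the results was not tested. In bulk RNA, fewer cells of a kind and less RNA per cell cannot be told apart.

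The transcripts of most of the 10 genes fell with genistein. Of the 10 genes, 7 were lower (Suv39h1, Suv39h2, Ehmt2, Kmt5b, Cbx1, Cbx3 and Cbx5), 1 was higher (Kmt5c) and 2 did not pass the test (Setdb1 and Ehmt1), at an adjusted p under 0.05 in edgeR's quasi-likelihood test. The response of MEF cells was broad: by the same rule 38.2% of all genes tested were lower and 33.5% were higher. The median log2 fold change of the 10 genes was -0.34, beside -0.03 over all genes tested. Of the 10 genes, 8 had both genistein libraries below both untreated libraries and 1 had both above them, against 44.6% and 40.7% of all genes tested. With a log2 fold change beyond 1 either way and a mean normalised count over 100 added, the thresholds of the study, 1 of the 10 passed, a lower one, beside 8.08% of all genes tested (4.16% lower and 3.92% higher). These are RNA values, and neither proteins nor histone marks were measured in these libraries. In its other assays of genistein-exposed MEF cells, the paper saw HP1α stay at heterochromatic foci and no loss of H3K9me3 or H4K20me3 signals there. By ChIP-qPCR it found H3K9me3 and HP1α not significantly changed at the major satellites. Counts below are normalised read counts, that is, counts scaled by TMM to the mean effective size of the libraries.

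**Figure D1:**
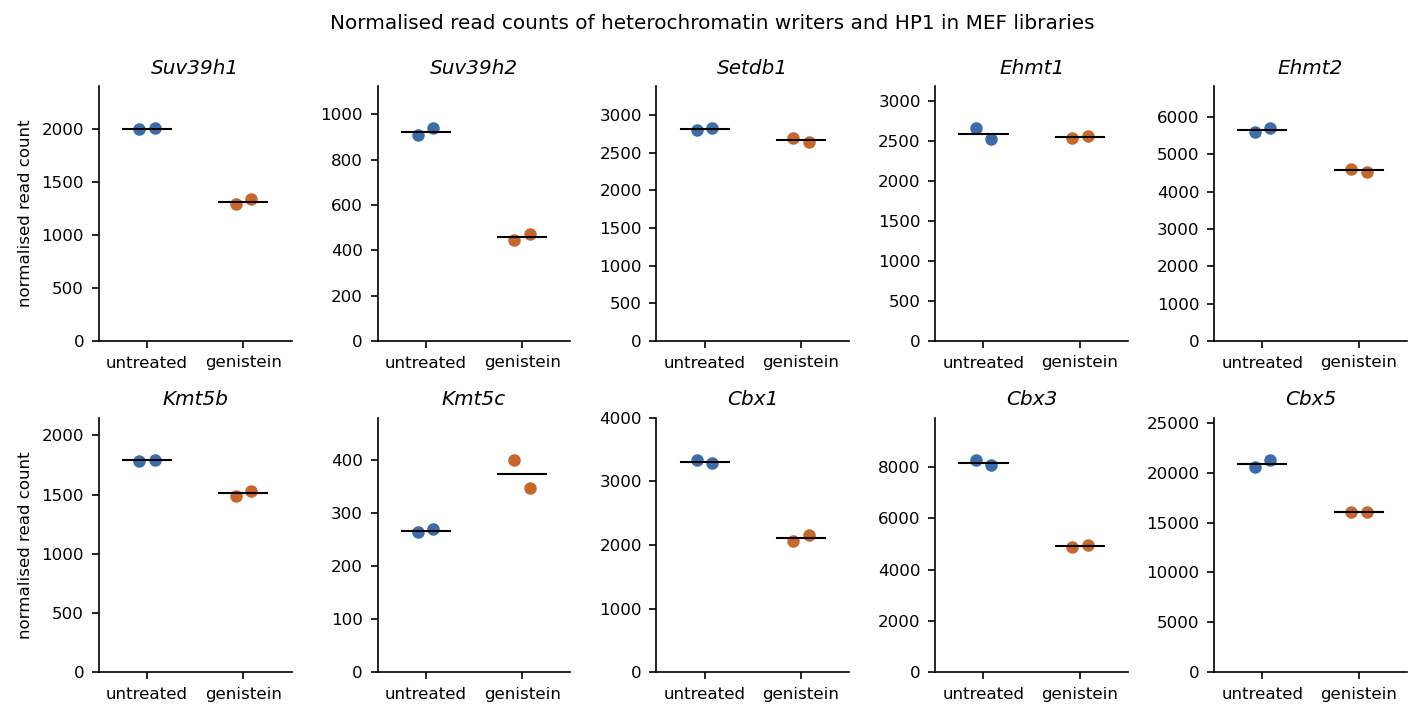
Normalised read counts (linear axis from 0) of the 10 genes in the 2 untreated (blue) and 2 genistein (orange) libraries. Points are libraries and black lines are group means. Suv39h2 lies at 906 and 937 untreated and 444 and 470 with genistein, Kmt5c is the gene that is higher in both genistein libraries, and the groups overlap for Ehmt1.

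Suv39h2 and Suv39h1 are the paired enzymes that write H3K9me3 at pericentric heterochromatin. Suv39h2 (ENSMUSG00000026646, chromosome 2, 3455815 to 3475031, minus strand, GRCm38) had 906 and 937 normalised counts when untreated and 444 and 470 after genistein. Both genistein libraries lay at about the same level, well below both untreated libraries. The log2 fold change was -1.01 ± 0.06 (SE), so that 49.6% of the untreated level was left (adjusted p = 3.2e-10, edgeR). It was the gene that fell most among the 10 and the one past the fold threshold. It lay so close to that threshold that 2 single libraries decided the call. The log2 fold change was -0.99 without untreated 2 and -0.97 without genistein 1.

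Suv39h2 shares 357 exon bases with Dclre1c on the opposite strand, a gene for a nuclease of DNA end joining. Without a stated strand setting, reads there could count for either gene. Dclre1c went the other way, from 330 and 297 to 521 and 474 normalised counts (log2 fold change 0.67, adjusted p = 1.9e-06, edgeR).

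Suv39h1 (ENSMUSG00000039231, chromosome X, 8061171 to 8074760, minus strand) had 2001 and 2003 normalised counts untreated and 1289 and 1334 with genistein. The replicates differed far less than the groups. The log2 fold change was -0.61 ± 0.04 (SE, adjusted p = 2.2e-09, edgeR). In raw reads, Suv39h2 made up 31.2% and 31.9% of the reads of the pair in untreated cells and 25.6% and 26.0% in genistein-exposed cells. The log2 ratio of Suv39h2 to Suv39h1 thus moved by -0.40, with SDs of 0.03 untreated and 0.02 with genistein.

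Setdb1 writes H3K9me3 at retroelements and other targets to which Trim28 leads it. Setdb1 (ENSMUSG00000015697, chromosome 3, 95323525 to 95357202, minus strand) had 2797 and 2822 normalised counts untreated and 2694 and 2641 with genistein. The groups did not overlap, and the genistein mean was 94.9% of the untreated mean. The log2 fold change was -0.07, with a 95% interval from -0.15 to 0.0013 (adjusted p = 0.072, edgeR), which missed the threshold. It passed with RLE size factors (adjusted p = 0.049) and without a filter on low counts (adjusted p = 0.031), and with library totals alone its value was -0.0053 (adjusted p = 0.91). Setdb1 shares 75 exon bases with Cers2, a ceramide synthase gene on the opposite strand, which fell by 0.58 on the log2 scale (adjusted p = 8.0e-10, edgeR).

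Ehmt1 (GLP) and Ehmt2 (G9a) form the complex that writes mono- and dimethylation of H3K9, mainly in euchromatin. Ehmt2 (ENSMUSG00000013787, chromosome 17, 34898469 to 34914052, plus strand) had 5592 and 5693 normalised counts untreated and 4619 and 4517 with genistein. Its log2 fold change was -0.30 ± 0.03 (SE, adjusted p = 2.5e-07, edgeR). Ehmt1 (ENSMUSG00000036893, chromosome 2, 24789928 to 24919614, minus strand) had 2658 and 2530 untreated and 2540 and 2564 with genistein. Here the groups overlapped, and the log2 fold change was -0.02 with a 95% interval from -0.11 to 0.06 (adjusted p = 0.58, edgeR). The sign of the Ehmt1 value was not stable, being 0.05 when only library totals were used and 0.02 with TMM factors from genes alone, and it was 0.0075 without untreated 1. Ehmt1 shares 21 exon bases with Gm37139 on the same strand, which rose (log2 fold change 0.70, adjusted p = 0.00013, edgeR). Gm38147, which overlaps Ehmt1 on the same strand with 0 shared exon bases, rose too (log2 fold change 0.99, adjusted p = 0.00011, edgeR). Both held at most 192 raw counts in a library. The log2 ratio of Ehmt1 to Ehmt2 moved by 0.28, with SDs of 0.07 and 0.03.

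Kmt5b and Kmt5c (Suv420h1 and Suv420h2) write di- and trimethylation of H4K20, and Kmt5c is best known at pericentric heterochromatin. They were the pair whose members passed the test in opposite directions. Kmt5c (ENSMUSG00000059851, chromosome 7, 4740115 to 4747514, plus strand) had 265 and 269 normalised counts untreated and 399 and 346 with genistein. Both genistein libraries were above both untreated ones, and they were farther apart from each other than the untreated libraries were. The log2 fold change was 0.49 ± 0.09 (SE), 1.40-fold of untreated (adjusted p = 0.00018, edgeR). It was 0.38 without genistein 1 and 0.58 without genistein 2, and it passed the test in both cases.

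Kmt5b (ENSMUSG00000045098, chromosome 19, 3767421 to 3818303, plus strand) had 1784 and 1791 normalised counts untreated and 1489 and 1533 with genistein, which gave a log2 fold change of -0.24 ± 0.04 (SE, adjusted p = 9.1e-05, edgeR). Kmt5c took 12.9% and 13.1% of the raw reads of the pair in untreated cells and 21.2% and 18.4% in genistein-exposed cells. The log2 ratio of Kmt5c to Kmt5b moved by 0.72, with SDs of 0.01 and 0.18.

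All of the HP1 genes fell. Cbx3 (ENSMUSG00000029836, chromosome 6, 51470360 to 51483704, plus strand), whose product HP1γ is also found in euchromatin, had 8273 and 8070 normalised counts untreated and 4868 and 4979 with genistein. Its log2 fold change was -0.73 ± 0.03 (SE), so that 60.2% was left (adjusted p = 1.4e-11, edgeR). Cbx1 (ENSMUSG00000018666, chromosome 11, 96789127 to 96808640, plus strand), which codes for HP1β, had 3337 and 3285 untreated and 2070 and 2163 with genistein. Its log2 fold change was -0.65 ± 0.04 (SE, adjusted p = 1.9e-10, edgeR).

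Cbx5 (ENSMUSG00000009575, chromosome 15, 103191544 to 103239816, minus strand) codes for HP1α, the form most enriched at pericentric foci. It had 20539 and 21258 normalised counts untreated and 16087 and 16062 with genistein. The log2 fold change was -0.38 ± 0.05 (SE, adjusted p = 1.7e-06, edgeR). The log2 ratio of Cbx5 to Cbx3 moved by 0.35 and that of Cbx5 to Cbx1 by 0.27, and that of Cbx1 to Cbx3 by 0.09. In all 6 ratios of paralogs compared, the genistein libraries did not overlap with the untreated libraries. Among single genes tested, 44.6% were lower and 40.7% higher without overlap, and no such share was computed for other gene pairs. The ratios among the HP1 genes share their genes, so they are not independent of each other. An exact two-sided permutation test over 2 libraries against 2 gave p = 0.33 for each ratio, before and after adjustment over the 6, which is the smallest p this design allows. A difference in response between paralogs can therefore not be shown by that test.

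**Figure D2:**
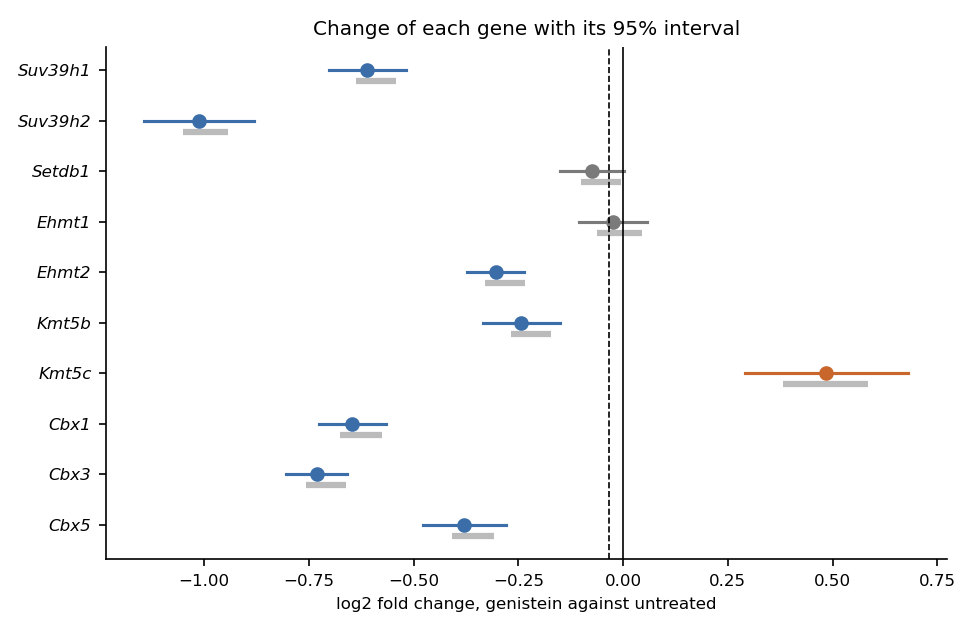
Log2 fold change of each gene, genistein against untreated, with its 95% interval from edgeR (blue, lower; orange, higher; grey, not past an adjusted p of 0.05). The light bars below give the range over the 11 alternative fits, the dashed line the median of all genes tested (-0.03), and Kmt5c lies alone on the right while Setdb1 and Ehmt1 lie at the zero line.

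Cbx3 reads could also be split with processed pseudogenes. These are reverse-transcribed gene copies that lie elsewhere in the genome. At 90% identity or more over 200 bases or more, 16 other counted genes matched Cbx3 transcripts, and 7 of them had reads. Among those with reads, Als2cr12 is a protein-coding gene and not a pseudogene. It matches in the opposite orientation over 319 bases, had at most 16 raw counts in a library and is counted among the copies below. Cbx3-ps6 and Cbx3-ps7 held most of the reads of the matching genes. They match the full 552 bases of the Cbx3 coding sequence with 1 and 2 mismatches. The mismatches are shown because they are the letters of these copies by which a read over the coding sequence can be assigned. Capitals mark the mismatched base, and positions count from 1 at the A of the start codon. Cbx3-ps6 carries A390G, as does Cbx3-ps7, which also carries C399T. The stretches come from GENCODE transcripts on GRCm38.
Cbx3, position 390: ataatcggcgccacAgacagcagcggaga
Cbx3-ps6 (chr14:73955148-73955176, minus strand): ataatcggcgccacGgacagcagcggaga
Cbx3-ps7 (chr1:58647063-58647091, plus strand): ataatcggcgccacGgacagcagtggaga
Cbx3, position 399: gccacagacagcagCggagagttaatgtt
Cbx3-ps7 (chr1:58647072-58647100, plus strand): gccacggacagcagTggagagttaatgtt

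Both copies fell as well. Cbx3-ps6 had 1324 and 1286 normalised counts untreated and 737 and 679 with genistein, which gave -0.88 as log2 fold change (adjusted p = 7.3e-10, edgeR). Cbx3-ps7 had 586 and 630 untreated and 291 and 406 with genistein, which gave -0.81 as log2 fold change (adjusted p = 3.8e-06, edgeR). All copies together held 18.9% and 19.3% of the joint reads untreated and 17.6% and 18.0% with genistein. With the copies added to Cbx3, its log2 fold change was -0.75. Cbx1 had no counted copy of this kind, and Setdb1 had 1, Gm4349, with at most 47 raw counts in a library.

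Levels were compared between genes per length only, as TPM (counts per length, scaled to the same total over genes in every library) with the union exon length of GENCODE. Cbx3 was taken by its own row, so its levels and shares leave out the reads of its copies. Cbx5 was the most abundant of the 10 with 182 ± 4.98 TPM untreated (SD, n = 2) and stood above 95.9% of all genes tested. Cbx3 followed with 107 ± 1.56, Ehmt2 with 80.8 ± 1.26 and Cbx1 with 60.9 ± 0.48. Setdb1 had 32.2 ± 0.30 TPM, Suv39h1 29.8 ± 0.11, Ehmt1 25.1 ± 0.80 and Suv39h2 16.4 ± 0.44. With this length the H4K20 writers were the scarcest, with 9.52 ± 0.06 TPM for Kmt5b and 5.24 ± 0.07 for Kmt5c. No neighbours in this order overlapped between the untreated libraries.

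In genistein-exposed cells the top was Cbx5 with 154 ± 4.67 TPM (SD, n = 2). Ehmt2 (71.9 ± 1.13) and Cbx3 (71.0 ± 3.36) then overlapped, as did Suv39h2 (8.96 ± 0.63) and Kmt5b (8.85 ± 0.46). The copies of Cbx3, left out here, held 17.6% and 18.0% of the joint reads with genistein. Its place beside Ehmt2 may therefore differ with the copies added, which was not computed. Kmt5c reached 8.04 ± 0.56 TPM, next to Kmt5b. Setdb1 (33.6 ± 0.58) and Ehmt1 (27.2 ± 1.03) were above their untreated TPM, although their normalised counts were below, so their direction depended on the scale. The order depends on the length chosen. With the longest transcript, Cbx3 came first in untreated cells (190 TPM, beside 161 for Cbx5), and Kmt5b had 19.8 TPM, above Suv39h2 with 14.5. In genistein-exposed cells Suv39h2 was then the scarcest (7.98 TPM), below Kmt5c (10.1) and Kmt5b (18.6).

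Summed over the family, the HP1 genes had 348 and 352 TPM in untreated libraries and 260.5 and 276 in genistein libraries. Within this sum Cbx5 took 51.3% and 52.7% untreated and 57.9% and 57.2% with genistein. Cbx3 held 31.1% and 30.1% of it untreated and 26.3% and 26.6% with genistein. Reads of the Cbx3 copies are in neither the sum nor the shares, for either length. With the longest transcript as length, Cbx5 took 35.5% and 36.8% untreated and 41.9% and 41.1% with genistein, and Cbx3 took 43.1% and 42.1% untreated and 38.1% and 38.4% with genistein, so which of them led in untreated cells depended on the length. The Suv39h pair summed to 45.9 and 46.7 TPM untreated and 29.2 and 31.8 with genistein. The Kmt5b and Kmt5c sum was 14.7 and 14.9 TPM untreated and 17.0 and 16.8 with genistein. Its direction depended on the scale, since the normalised counts of the pair, not set per length, summed to 2049 and 2060 untreated and 1889 and 1880 with genistein. Of the TPM sum of the pair, Kmt5c took 35.4% and 35.6% untreated and 49.7% and 45.4% with genistein. With the longest transcript as length, its share was 24.7% and 24.9% untreated and 37.2% and 33.3% with genistein.

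**Figure D3:**
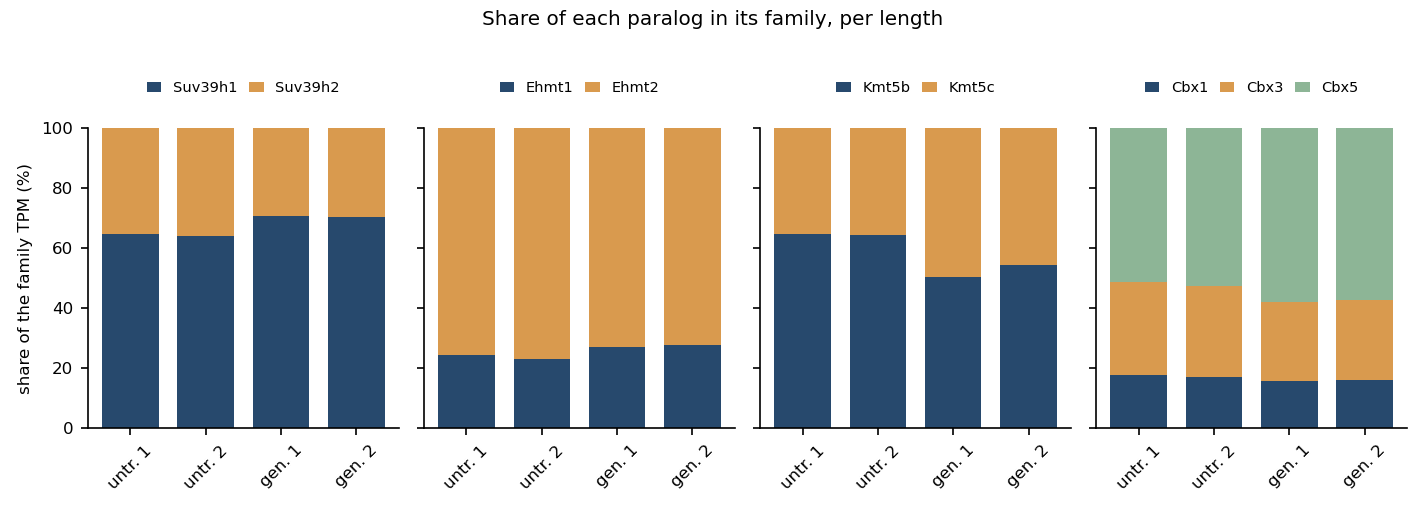
Share of each paralog in the summed TPM of its family (percent, union exon length) in each library, untreated 1 and 2 (untr.) and genistein 1 and 2 (gen.). Kmt5c takes 35.4% and 35.6% of its pair untreated and 49.7% and 45.4% with genistein, and with this length Cbx5 takes between 51.3% and 57.9% of the HP1 sum. Reads of the Cbx3 copies are not included.

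The promoters of the 10 genes were searched for letters of known cell cycle and general promoter motifs, on both strands, in RefSeq windows (GRCm38.p6) from 250 bases before to 50 after each start. All 10 genes had at least 1 window, 15 in all. The E2F letters (TTTCCCGC, TTTGGCGC, TTTCGCGC or TTTGCCGC) were in 1 window each of Cbx3, Kmt5c and Suv39h1, and in 2.26% of all 32851 windows and 4.0% of those of genes tested. The CHR letters (TTTGAA), an element of late cell cycle genes, were in 1 window, that of Suv39h2. They were in 17.9% of all windows and 12.0% of those of genes tested. The GC box (GGGCGG) was in 13 of the 15 windows, from 9 of the 10 genes, Kmt5c being the exception. It was in 35.7% of all windows and 62.7% of those of genes tested. The CCAAT box (CCAAT) was in 4 of the 15 windows, from 4 genes, and in 37.4% of all windows and 38.0% of those of genes tested. The E2F matches are shown because they fall in genes of either direction. The CHR match in Suv39h2 is shown beside them, and the other genes that fell had no CHR letters in their windows. Capitals mark the match, read on the strand of the gene. The E2F letters of Kmt5c and the later start of Suv39h1 lie on the other strand. These matches are descriptions of the letters and not of binding.
Cbx3 (chr6:51470437-51470466, plus strand): tggagccccgcTTTGGCGCgctccgagacg
Kmt5c (chr7:4740011-4740040, plus strand): ggccagaagagGCGGGAAAaagagagcaat
Suv39h1, later start (chrX:8074407-8074436, minus strand): ggaaggccggcGCGGCAAAcgtgggggccg
Suv39h2 (chr2:3474951-3474978, minus strand): gaccgcgccagTTTGAAtgaaagctccg

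Other genes of the H3K9 and H4K20 pathway were listed from general knowledge, 36 in all, of which 33 were tested and Kdm4d, Prdm16 and L3mbtl1 did not pass the filter on low counts. Of these, 15 were lower, 13 were higher and 5 did not pass (edgeR, adjusted p under 0.05), with a median log2 fold change of -0.06. These shares of 15 and 13 in 33 stand beside 38.2% lower and 33.5% higher among all genes tested.

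The erasers of H3K9 methylation were mostly higher. Of 10 demethylases tested, 7 rose, 2 fell and 1 did not pass, beside 33.5% higher and 38.2% lower among all genes tested. Their median log2 fold change was 0.29. Kdm7a rose most, from 414 and 456 normalised counts untreated to 1014 and 1056 with genistein (log2 fold change 1.25, adjusted p = 4.3e-11, edgeR). Jmjd1c had a log2 fold change of 0.51 and Phf8 of 0.36. The 2 that fell were Kdm1a (LSD1), which also acts on H3K4, with -0.49, and Phf2 with -0.19. Phf2 did not pass with library totals alone, where its value was -0.13. Kdm4a, Kdm4b and Kdm4c, which remove trimethylation, had log2 fold changes of 0.29, 0.27 and 0.32 and rose in each alternative fit.

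Among 4 other writers tested, 3 fell and 1 rose. Kmt5a (Set8), which writes the H4K20 monomethylation that Kmt5b and Kmt5c extend, fell from 3110 and 3022 normalised counts to 1879 and 1859 (log2 fold change -0.71, adjusted p = 5.6e-11, edgeR). Mecom fell by 1.15 on the log2 scale and Setdb2 by 0.39, and Prdm2 rose by 0.62. Of 8 cofactors and HUSH complex genes, 4 fell, 2 rose and 2 did not pass, with a median of -0.18. Trim28 (KAP1), the corepressor that brings Setdb1 and HP1 to their targets, fell from 12023 and 11626 to 6178 and 6024 normalised counts (log2 fold change -0.95, adjusted p = 6.9e-12, edgeR). Atf7ip, which stabilises Setdb1 in the nucleus, went the other way, from 1480 and 1605 to 3080 and 2940 (log2 fold change 0.97, adjusted p = 1.1e-11, edgeR). Mphosph8, Tasor and Pphln1 of the HUSH silencing complex fell by 0.38, 0.31 and 0.31 on the log2 scale, and Zfp644, a partner of the Ehmt complex, rose by 0.15. Morc2a with -0.05 and Wiz with 0.0099 did not pass.

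Of 7 HP1 partners and replication-coupled factors, 4 fell and 3 rose. Chaf1b, a subunit of the histone chaperone CAF-1, had a log2 fold change of -0.85, Uhrf1, which couples DNA methylation to replication and binds methylated H3K9, of -0.69 and the CAF-1 subunit Chaf1a of -0.40. Lrif1, an HP1 partner, rose by 0.57, Adnp by 0.17 and Pogz by 0.15. Pogz lost its call in 4 of the 11 alternative fits, the lowest value being 0.10, and Adnp lost it without untreated 1. Of 4 other readers, Cdyl and Bahd1 fell by 0.47 and 0.30 on the log2 scale. Orc1 with -0.07 and Trp53bp1 with -0.02 did not pass.

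Among the Polycomb chromobox genes, relatives of HP1 whose products read H3K27 methylation, Cbx6 fell (log2 fold change -0.34, adjusted p = 8.8e-08, edgeR). Cbx8 rose (log2 fold change 0.31, adjusted p = 0.0035, edgeR). Cbx8 lost its call with DESeq2. Whether HP1 and Polycomb chromobox genes differed in response was not tested.

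**Figure D4:**
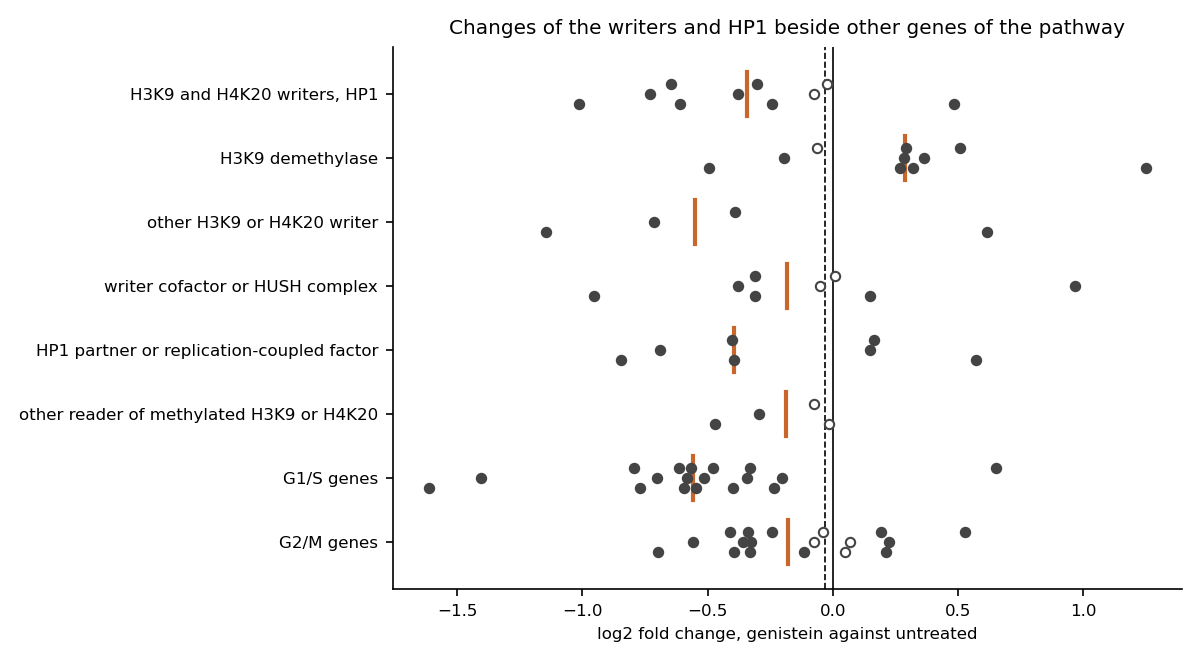
Log2 fold change (genistein against untreated) of the 10 genes, of the other pathway genes by role and of G1/S and G2/M genes. Each point is a gene (filled, adjusted p under 0.05 in edgeR; open, not past it), orange bars are medians and the dashed line is the median of all genes tested. The demethylases have a median of 0.29 and the 10 genes of -0.34.

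The genes nearest in pattern to Suv39h2 and Kmt5c were named by a fixed measure, the Euclidean distance between log2 CPM (counts scaled for library size) in the 4 libraries, each minus the untreated mean, among genes of like mean level. For Suv39h2 these were Fkbp11 (distance 0.03), Kdelc1 (0.03) and Uchl5 (0.03), out of 4258 candidates, with log2 fold changes of -0.99, -1.03 and -1.02. For Kmt5c they were Calhm2 (0.03), Zbtb49 (0.05) and Ubald1 (0.05), out of 2917 candidates, with log2 fold changes of 0.47, 0.47 and 0.46.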

How the data were processed

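Total RNA of 2 untreated and 2 genistein-exposed MEF libraries was prepared with a stranded, ribosome-depleting kit. The authors used Trim Galore for trimming, STAR for alignment to mm10 (multiply aligned reads were retained) and TEtranscripts for counting over Gencode M9 genes and repeats. The deposited values are raw counts, and the strand setting of the counter was not given in the sources used here. Of 49383 entries, 1 had no name and was excluded (at most 0.00314% of a library). Coordinates, lengths and symbols are from GENCODE M21 on GRCm38, so they may differ slightly from the annotation used for counting. Symbols matched 47224 of 47937 gene identifiers.

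Counts of genes and repeats were fitted together with edgeR 4.0.16 in R 4.3.3 (filterByExpr, TMM, quasi-likelihood test, Benjamini-Hochberg adjustment over 17358 kept entries). Standard errors are the log2 fold change divided by the root of F. Alternatives covered scaling, filtering, DESeq2 1.42.0, a replicate block, leaving out libraries and adding gene copies found with blastn 2.17.0. Copies on the opposite strand of the gene's own locus were not added. Counts of the replicates were not alike within counting error, with chi-square values of 5.48 (untreated) and 12.1 (genistein) for each degree of freedom, so all 4 libraries were kept apart. On simulated counts with 198 of 17063 entries changed by 1.5-fold, edgeR called 145 of these and 15 unchanged entries. A far larger part was called in the data (38.2% of genes tested lower and 33.5% higher). The simulation therefore gives no error rate for the calls reported here.

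The 10 genes and all lists were chosen with earlier results of these data known. Named were all 10 genes, up to 3 genes in each direction per role group with the largest changes, and for Suv39h2 and Kmt5c the 3 nearest genes. Other genes named were chosen after their values were seen. The result of 1 listed gene is not reported here.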

Additional observations from a re-analysis of the deposited data

How the results depend on the processing

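In 11 alternative fits, Suv39h1, Suv39h2, Ehmt2, Kmt5b, Kmt5c, Cbx1, Cbx3 and Cbx5 kept their direction and their side of the adjusted p threshold. Setdb1 passed with RLE size factors (-0.08) and with no filter (-0.10), and Ehmt1 did not pass in any. The median of the 10 genes, -0.34, was -0.30 with TMM factors from genes alone and -0.27 with library totals alone, where the median of all genes was 0.01 and 0.04 instead of -0.03. The 1 gene past all thresholds, Suv39h2, became 0 with TMM factors from genes alone (-0.97) and with library totals alone (-0.94). Leaving out each library in turn gave 0 to 1 genes past all thresholds and medians of the 10 genes from -0.37 to -0.33. With copies added, the log2 ratio of Cbx1 to Cbx3 moved by 0.11 instead of 0.09. The replicate block gave 7 lower and 1 higher gene and a median of -0.34, and it changed no call among the 10. Same-numbered libraries deviated with a correlation of -0.03, so no pairing by number was detected, which does not show that there was none. With 2 libraries per group, small changes such as that of Setdb1 stay near the limit of the test, and Kmt5c rests on 254 to 426 raw counts per library.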
